A study of Mus musculus with 10 samples.

Results

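Polycomb complex genes were examined in sorted mouse LSK cells, the fraction of bone marrow that lacks lineage markers, carries Sca-1 and c-Kit, and holds hematopoietic stem cells and multipotent progenitors. The members were the 10 rows of the deposited count table for Ezh1, Ezh2, Eed, Suz12, Bmi1, Cbx2, Cbx7, Cbx8, Ring1 and Rnf2, out of 25078 genes listed and 18747 with at least 1 count in any library. RNA sequencing of rRNA-depleted total RNA compared 5 CM mice (Cbfb56M/+/Mx1-Cre) with 5 CM/miR-126Δ/Δ mice (the same alleles with both floxed copies of miR-126 deleted), 1 library per mouse, to find which genes and pathways depend on miR-126 in preleukemic cells. All mice were on a C57BL/6 background, were 6 to 8 weeks old at induction and received poly(I:C), and cells were taken 6 weeks after induction. Mx1-Cre responds to interferon and is not restricted to LSK cells. The CM knock-in allele, which encodes the CBFβ-SMMHC fusion of inv(16) leukemia, was present in both genotypes, so no value here compares its presence with its absence.

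Polycomb proteins keep genes silent through histone marks. In Polycomb repressive complex 2 (PRC2), EZH2 or its paralog EZH1 methylates histone H3 at lysine K27 and needs EED and SUZ12 to do so. Canonical PRC1 contains a CBX protein that reads this methylation, a PCGF protein such as BMI1, a PHC protein, and the ubiquitin ligase RNF2 or its paralog RING1, which marks histone H2A. Bmi1 is required for the self-renewal of adult hematopoietic stem cells, in part by silencing the Cdkn2a locus, while CBX7 is known for favoring self-renewal and CBX2 and CBX8 for opposing it when overexpressed.

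The deleted microRNA and the promoters of 3 PRC2 genes are shown first, the first because it is what the genotypes differ in and the others because they hold letters of E2F or RUNX binding motifs. Sequences are from RefSeq (GRCm38.p6). Mature miR-126-3p, from chromosome 2, has its seed (bases 2 to 8) in capitals.
mmu-miR-126a-3p: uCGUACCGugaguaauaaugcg
The 6 letters GGTACG, which pair with bases 2 to 7 of the microRNA, were sought in the longest 3′ untranslated region of each member among GENCODE M1 transcripts, of which only the sequences were used. None of the 10 regions, 281 to 2509 bases long, held them, whereas 3.58% of the 9638 expressed genes with such a region did. Beside so low a share, 0 of 10 is not a result about the members. The promoters span 250 bases before to 50 bases after the annotated start, and the capitals mark matches on either strand to the E2F letters TTTCCCGC or TTTGGCGC and to the RUNX letters TGTGGT or TGCGGT. RUNX proteins are the DNA-binding partners of CBFβ.
Ezh2, chr6:47594981-47595280, minus strand: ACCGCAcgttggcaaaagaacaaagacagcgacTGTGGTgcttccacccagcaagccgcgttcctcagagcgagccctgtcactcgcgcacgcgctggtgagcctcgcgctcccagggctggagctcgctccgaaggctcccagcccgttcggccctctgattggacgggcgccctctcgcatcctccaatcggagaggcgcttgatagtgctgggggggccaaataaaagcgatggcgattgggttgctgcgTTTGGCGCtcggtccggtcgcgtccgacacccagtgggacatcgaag
Suz12, chr11:79992856-79993155, plus strand: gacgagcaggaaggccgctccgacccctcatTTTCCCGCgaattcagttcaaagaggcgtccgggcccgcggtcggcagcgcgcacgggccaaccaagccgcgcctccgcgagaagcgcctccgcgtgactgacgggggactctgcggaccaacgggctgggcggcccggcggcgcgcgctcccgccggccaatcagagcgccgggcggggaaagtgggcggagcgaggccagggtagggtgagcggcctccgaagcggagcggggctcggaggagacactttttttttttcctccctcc
Ezh1, chr11:101226414-101226713, minus strand: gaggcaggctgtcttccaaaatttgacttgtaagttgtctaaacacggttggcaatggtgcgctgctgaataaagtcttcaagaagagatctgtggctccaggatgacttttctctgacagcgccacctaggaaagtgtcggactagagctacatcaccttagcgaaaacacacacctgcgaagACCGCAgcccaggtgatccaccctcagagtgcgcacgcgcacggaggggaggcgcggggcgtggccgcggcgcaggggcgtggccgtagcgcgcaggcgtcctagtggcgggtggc
Of the 9 members with a promoter sequence, Ezh2 and Suz12 held an E2F match, against 1.56% of all 32851 promoters of this length, and Ezh1 and Ezh2 held a RUNX match, against 22.4%. The 9 promoters held 17 to 41 CG pairs each, and both E2F motifs contain CG. All promoters were not matched to the members for CG pairs, so the shares are not like for like. The letters of 4 other motifs were sought on both strands and found in 0 of the 9, namely AGATAA for GATA factors (in 11.2% of all promoters), CCGGAAG for ETS factors (8.86%), the palindromic NRF1 motif (0.971%) and AAGATGGC for YY1 (2.75%). In Ezh2 the E2F match begins 3 bases after the start, and in Suz12 it begins 219 bases before it. Such matches are descriptions of letters and were not tested for binding.

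The libraries held 23649233 to 33202086 counts in CM mice and 24141663 to 26615091 in CM/miR-126Δ/Δ mice. At this depth a count of 3, used as the detection limit, equals at most 0.131 CPM (counts scaled to the TMM-adjusted library size), a limit that covers counting error only. Mir126a, the precursor of the deleted microRNA, was counted 4, 5, 0, 2 and 3 times in CM mice 1 to 5 and never in CM/miR-126Δ/Δ mice (two-sided exact permutation test, n = 5 each, p = 0.0476). Transcripts of both surface proteins that the sort selects were present, with Kit at 166 RPKM in CM and 179 RPKM in CM/miR-126Δ/Δ, and Ly6a, which encodes Sca-1, at 57.2 and 58.4 RPKM. The progenitor gene Cd34 was at 360 and 334 RPKM. RPKM divides the CPM by the exon length in kilobases, and it is the scale used wherever levels of different genes are compared. The T cell gene Cd3e averaged 1.12 CPM in CM and 0.981 in CM/miR-126Δ/Δ mice, and 5 T cell markers together reached at most 20.8 CPM in any mouse. Myeloid marker transcripts were present, although the sort left out lineage-positive cells and the antibodies listed for the study include CD11b, Gr-1 and CD41 (encoded by Itgam, Ly6 genes and Itga2b). The 6 myeloid markers summed to 195 ± 58.7 CPM over CM libraries and 170 ± 48.8 CPM over CM/miR-126Δ/Δ libraries (SD), led by Csf1r, the receptor of monocytes, at 93.6 and 80.4 CPM and Itgam, which encodes CD11b, at 88.1 and 69.0 CPM, while the neutrophil surface gene Ly6g averaged 0.102 and 0.182 CPM. Itgam had a log2 fold change of −0.35 (edgeR unadjusted p = 0.0316, adjusted p = 0.746), which was −0.14 without CM mouse 3. Csf1r was lower in 5 of 5 same-numbered pairs (log2 fold change −0.22, adjusted p = 0.812, and 0.278 with the block), and leaving out 1 mouse moved its log2 fold change between −0.45 (without CM/miR-126Δ/Δ mouse 3) and −0.057 (without CM mouse 3), with −0.070 and −0.14 without CM/miR-126Δ/Δ mice 1 and 2. The granule gene Ltf reached 65.2 CPM in CM/miR-126Δ/Δ mouse 4 and 38.2 CPM in CM mouse 5, against at most 5.57 CPM in the other 8 mice. Camp, also a myeloid marker, was highest in the same 2 mice, at 22.7 and 8.58 CPM. Camp, Ly6g and Ltf had positive log2 fold changes (1.14, 0.82 and 0.59) and Cd14 a negative one (−0.39). None of the 4 had an unadjusted p under 0.05 in the edgeR fit without the block. Markers of other lineages were present as well, with sums of 233 ± 62.6 and 210 ± 49.3 CPM for 5 mast cell and basophil genes, led by Cpa3, and of 190 ± 27.1 and 162 ± 31.7 CPM for 5 megakaryocyte genes. Of the latter, Pf4, Gp9 and Ppbp had positive and Itga2b and Gp1ba negative log2 fold changes, none with an unadjusted p under 0.05 in the edgeR fit without the block and Itga2b alone with it. Itga2b, the most abundant, had a log2 fold change of −0.26 (adjusted p = 0.764, and 0.274 with the block), lower in 5 of 5 pairs, and −0.16 without CM/miR-126Δ/Δ mouse 3. The summed level of neither list separated the genotypes. Within same-numbered pairs the megakaryocyte sum was lower in CM/miR-126Δ/Δ each time, while the mast cell and basophil sum went both ways. The part of these transcripts in the values of the Polycomb genes was not tested.

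All 10 Polycomb genes were expressed, over a range from 54.2 RPKM for Ezh2 to 7.37 RPKM for Cbx8. Ezh2, Suz12 and Eed of PRC2 led the order. Ezh2, the main H3K27 methyltransferase of dividing cells, was at 54.2 ± 2.35 RPKM (SD over all 10 mice), higher than 92.3% of the 11682 expressed genes, those whose RPKM averaged 1 or more in a genotype. Suz12, the zinc finger subunit that holds PRC2 together, followed at 46.3 ± 3.55 RPKM and was below Ezh2 in 10 of 10 mice, although the ranges of the 2 genes over mice overlapped. Eed, the subunit that binds methylated H3, was at 28.1 ± 1.61 RPKM. Its range overlapped neither that of Suz12 nor that of Rnf2.

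Rnf2 and Bmi1 were the highest of the 6 PRC1 genes among the members. Rnf2, the ubiquitin ligase, was at 20.3 ± 1.52 RPKM and Bmi1 at 15.8 ± 1.72 RPKM. Ezh1, the paralog of Ezh2 that persists in resting cells, was at 14.5 ± 0.924 RPKM. Bmi1 exceeded Ezh1 in 8 of 10 mice, and their ranges overlapped. Cbx2 (11.7 ± 0.906 RPKM) lay below Ezh1 and above Ring1 in 10 of 10 mice each. The ranges of the 3 lowest members overlapped. Ring1, the second ligase, was at 8.38 ± 0.696 RPKM, Cbx7 at 8.15 ± 1.42 RPKM and Cbx8 at 7.37 ± 0.815 RPKM. Ring1 was above Cbx7 in 5 of 10 mice, so these 2 could not be ordered, while Cbx7 was above Cbx8 in 8 of 10.

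**Figure D1:**
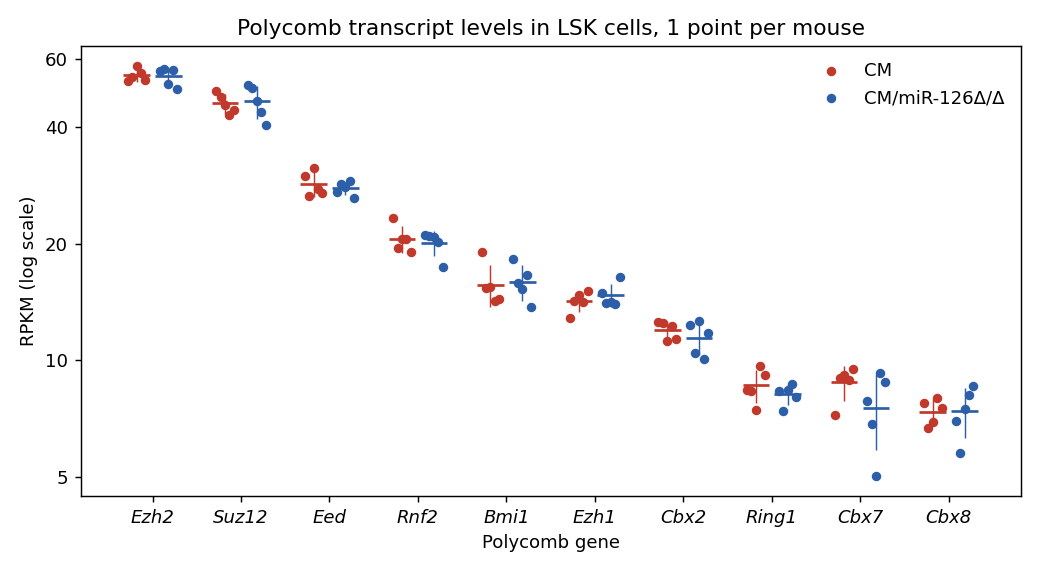
RPKM (log axis) of the 10 Polycomb genes, ordered by mean level, with 1 point per mouse (red, 5 CM mice; blue, 5 CM/miR-126Δ/Δ mice), a horizontal line at the mean and a vertical line for ± 1 SD. The genotypes overlap for every gene, and Cbx7 shows the widest spread, with CM/miR-126Δ/Δ mouse 3 lowest at 5.03 RPKM.

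No difference between CM/miR-126Δ/Δ and CM LSK cells was detected for any of the 10 Polycomb genes, and the intervals bounded how large one could be. In edgeR's quasi-likelihood test over all 18747 genes, 0 members passed the cutoffs of the study (p at or below 0.01, a change of 1.5-fold or more, and RPKM averaging 1 or more in a genotype), against a background of 0.288% of all genes. No member had an unadjusted p under 0.05, where 7.92% of expressed genes did. Their adjusted p-values (Benjamini-Hochberg over all genes) ran from 0.765 to 0.995, and DESeq2 called 0 of them as well. With the replicate number as a block 0 members were called too, where the background was 0.613%. By log2 fold change 4 were higher and 6 lower in CM/miR-126Δ/Δ, with a median of −0.0212, close to the median of −0.0192 over all 11682 genes at this level, of which 42.5% were higher and 57.5% lower. The genotypes overlapped for 10 of 10 members, and in all expressed genes 1.38% had genotypes that did not overlap. In the fit of all mice, the 95% intervals, taken one gene at a time, excluded a 1.5-fold difference in either direction for 10 of 10 genes. The interval of Cbx7 was the widest, and the bounds of the other 9 ran from −17.2% for Ring1 to 19.3% for Cbx8. Leaving out CM/miR-126Δ/Δ mouse 4 or 5 moved the log2 fold change of Cbx7 to −0.283 or −0.275. Whether its interval then stays within 1.5-fold is not given here. In bulk cells, fewer cells of a type and less RNA per cell cannot be told apart, so a level here is a mean over the sorted population.

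**Figure D2:**
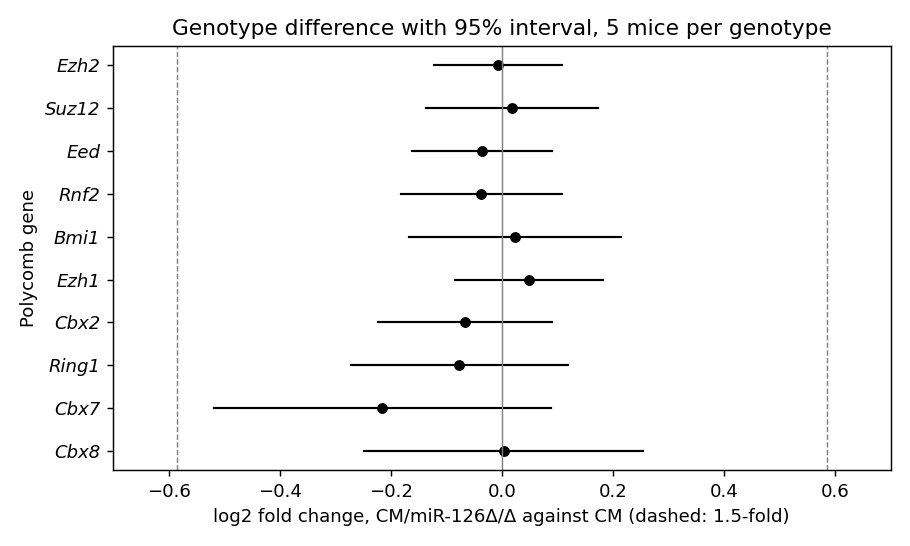
Log2 fold change of each Polycomb gene in CM/miR-126Δ/Δ against CM (points) with its 95% interval from edgeR's quasi-likelihood fit, 5 mice per genotype, and dashed lines at 1.5-fold in each direction. All 10 intervals include 0 and lie inside the dashed lines, and that of Cbx7 reaches furthest, to −0.52.

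Ezh2 varied least of the 10 members. Ezh2 (chromosome 6) was at 140, 144, 153, 147 and 141 CPM in CM mice 1 to 5 and at 149, 151, 138, 149 and 134 CPM in CM/miR-126Δ/Δ mice 1 to 5. The highest mouse had 1.14 times the level of the lowest, and the ranges of the genotypes overlapped in part. The log2 fold change was −0.0066 (standard error 0.0541), a change of −0.459% with a 95% interval from −8.14% to 7.86% (edgeR adjusted p = 0.977; exact permutation test, n = 5 each, p = 0.841). Ezh1 (chromosome 11) was at 53.9, 59.9, 62.01, 59.3 and 63.5 CPM in CM mice and at 62.9, 59.2, 59.4, 58.8 and 68.8 CPM in CM/miR-126Δ/Δ mice. Mouse 1 was lowest among CM mice and mouse 5 highest among CM/miR-126Δ/Δ mice, with the other 8 libraries between 58.8 and 63.5 CPM. Its change was 3.47%, with an interval from −5.61% to 13.4% (exact permutation test, n = 5 each, p = 0.460).

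The share of Ezh2 in the summed RPKM of Ezh1 and Ezh2 was 79.3% ± 0.983 in CM and 78.6% ± 1.91 in CM/miR-126Δ/Δ (SD over 5 mice each). It stayed between 75.4% and 80.4% over all mice, with the lowest value in CM/miR-126Δ/Δ mouse 5 and the highest in CM mouse 1. The ranges of the genotypes overlapped in part.

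Suz12 and Eed, without which neither methyltransferase is active, also overlapped between the genotypes. Suz12 (chromosome 11) was at 217, 209, 199.5, 188 and 193 CPM in CM mice and at 225, 220.5, 204.5, 192 and 177 CPM in CM/miR-126Δ/Δ mice, and the highest and the lowest value both belonged to CM/miR-126Δ/Δ mice. Its change was 1.28% (95% interval −9.07% to 12.8%; exact permutation test, n = 5 each, p = 0.849). Eed (chromosome 7) was at 61.7, 54.7, 64.5, 56.9 and 55.6 CPM in CM mice and at 56.1, 58.7, 57.6, 59.9 and 53.9 CPM in CM/miR-126Δ/Δ mice. CM mice 1 and 3 were higher than every other library. The change in Eed was −2.45% (95% interval −10.6% to 6.501%; exact permutation test, n = 5 each, p = 0.548).

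Among the PRC1 genes, the ligases and Bmi1 also overlapped between genotypes. Rnf2 (chromosome 1) was at 91.8, 76.9, 81.2, 80.9 and 74.8 CPM in CM mice and at 82.8, 82.4, 81.8, 79.7 and 68.7 CPM in CM/miR-126Δ/Δ mice. CM mouse 1 was highest and CM/miR-126Δ/Δ mouse 5 lowest, and the difference was −2.52% (95% interval −11.9% to 7.81%; exact permutation test, n = 5 each, p = 0.619). Ring1 (chromosome 17) was at 17.1, 16.9, 15.1, 19.7 and 18.6 CPM in CM mice and at 16.9, 15.02, 17.02, 17.7 and 16.3 CPM in CM/miR-126Δ/Δ mice. In 4 of 5 same-numbered pairs the CM/miR-126Δ/Δ mouse had the lower value. The change was −5.17% (95% interval −17.2% to 8.61%, exact permutation test without the pairing, n = 5 each, p = 0.357). By RPKM, Rnf2 made up 70.5% ± 2.90 of the 2 ligases in CM and 71.0% ± 2.03 in CM/miR-126Δ/Δ (SD over 5 mice each).

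Bmi1 (chromosome 2), the PCGF subunit most studied in blood stem cells, was at 68.3, 55.1, 55.4, 51.0 and 51.8 CPM in CM mice and at 65.7, 57.0, 54.8, 59.7 and 49.3 CPM in CM/miR-126Δ/Δ mice. Mouse 1 was the highest of its genotype in both groups. The change was 1.70% (95% interval −10.9% to 16.1%; exact permutation test, n = 5 each, p = 0.817). Among the 6 PCGF genes, whose products occur in canonical or variant PRC1 complexes, Bmi1 held 22.8% ± 1.76 of the summed RPKM in CM and 23.5% ± 1.56 in CM/miR-126Δ/Δ. Pcgf2, the other canonical PCGF gene, held 3.81% ± 1.11 and 3.69% ± 1.01. Pcgf5, which belongs to variant PRC1, held the most in every mouse, at 33.2% ± 0.905 and 35.4% ± 2.21.

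The CBX genes, whose products recruit canonical PRC1 to methylated H3, included the member with the largest difference. Cbx7 (chromosome 15) was at 20.8, 26.1, 26.5, 25.8 and 27.5 CPM in CM mice and at 22.7, 19.8, 14.5, 26.7 and 25.4 CPM in CM/miR-126Δ/Δ mice. CM mouse 1 and CM/miR-126Δ/Δ mice 1, 2 and 3 formed the low end, and CM/miR-126Δ/Δ mice 4 and 5 lay within or just below the range of the other CM mice. The log2 fold change was −0.21 (standard error 0.141), a change of −13.8% with an interval from −30.1% to 6.28% (edgeR adjusted p = 0.765; exact permutation test, n = 5 each, p = 0.206). Without CM/miR-126Δ/Δ mouse 3 it was −0.0998, a fall of more than 1.5 times in size.

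Cbx2 (chromosome 11) was at 47.0, 46.7, 42.2, 46.1 and 42.6 CPM in CM mice and at 46.2, 39.2, 47.4, 37.8 and 44.0 CPM in CM/miR-126Δ/Δ mice, where mice 2 and 4 were the lowest of all. The change was −4.51% (95% interval −14.3% to 6.46%; exact permutation test, n = 5 each, p = 0.381). Cbx8, also on chromosome 11, was at 10.8, 9.29, 9.62, 11.1 and 10.5 CPM in CM mice and at 9.72, 8.03, 10.4, 11.3 and 11.9 CPM in CM/miR-126Δ/Δ mice. Its lowest and highest libraries were both CM/miR-126Δ/Δ, and its change of 0.245% had an interval from −15.8% to 19.3% (exact permutation test, n = 5 each, p = 0.960). The 3 CBX members were not the most abundant of their family. Cbx6 held 40.5% ± 2.32 of the summed RPKM of 5 CBX genes in CM and 42.2% ± 2.71 in CM/miR-126Δ/Δ. Cbx2 held 17.6% ± 0.765 and 17.3% ± 1.64, Cbx7 12.9% ± 1.56 and 11.4% ± 2.33, and Cbx8 10.8% ± 0.700 and 11.1% ± 1.43 (SD over 5 mice each). For every member the shares of the genotypes overlapped.

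**Figure D3:**
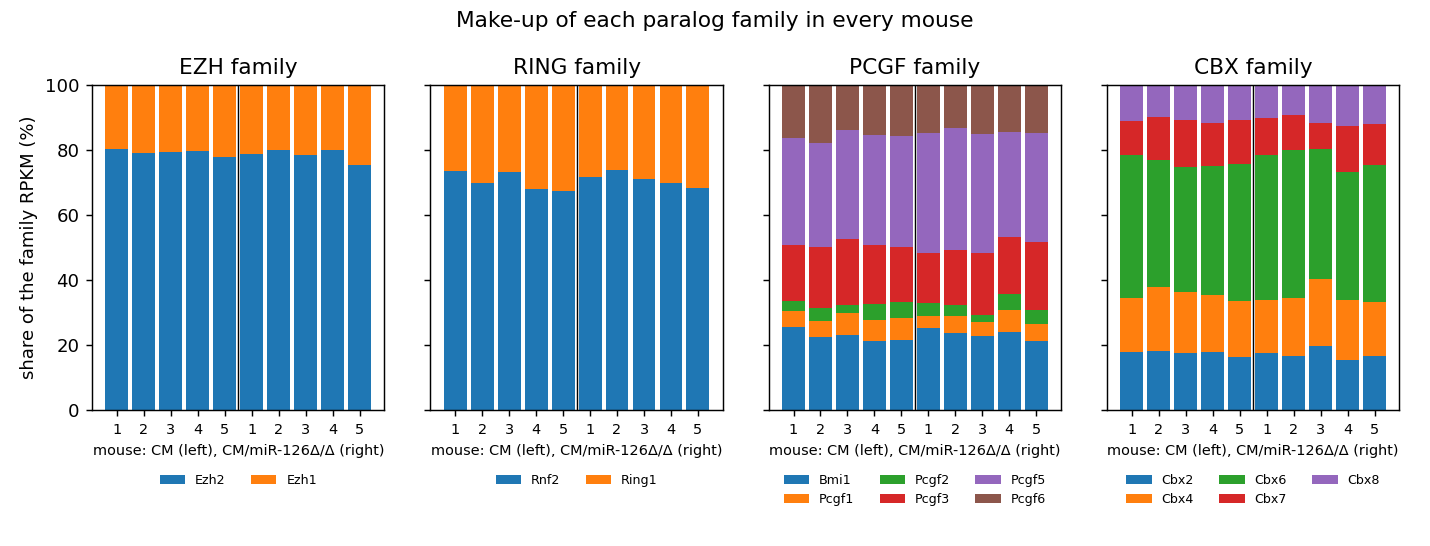
Share of the summed RPKM of the EZH, RING, PCGF and CBX families (percent) taken by each paralog in every mouse, with CM mice 1 to 5 left and CM/miR-126Δ/Δ mice 1 to 5 right of the line. Ezh2 takes 75.4% to 80.4% of its family in all 10 mice, while Bmi1 and the CBX members take smaller shares that overlap between the genotypes.

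The members differed in how much they varied between mice. Over all 10 libraries the coefficient of variation of the CPM was 4.34% for Ezh2, 5.74% for Eed, 6.40% for Ezh1, 7.48% for Rnf2, 7.66% for Suz12 and 7.75% for Cbx2. It was 8.30% for Ring1, 10.9% for Bmi1, 11.1% for Cbx8 and 17.5% for Cbx7, and the median of all expressed genes was 9.84%. Since low counts vary more, each was also set beside genes whose mean count lay within 1.5 times of its own. Of 1615 such genes, 5.94% varied less than Ezh2, and of 2581 such genes, 89.3% varied less than Cbx7. These percentages are descriptions of the 10 libraries.

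Whether the members varied together was examined over the 10 mice for all 45 pairs (log2 CPM; permutation test with 100000 resamples). After Benjamini-Hochberg adjustment over the 45 pairs, 0 pairs had a Pearson or Spearman p under 0.05, and 6 had an unadjusted Pearson p under 0.05. Rnf2 and Bmi1, partners in canonical PRC1, had the highest correlation (r = 0.792, permutation p = 0.00522, adjusted p = 0.117; rho = 0.758, permutation p = 0.0148, adjusted p = 0.228; r = 0.653 without the 2 mice farthest from the median of Bmi1). Bmi1 also followed Suz12 (r = 0.764, permutation p = 0.00995, adjusted p = 0.149; rho = 0.733, permutation p = 0.0203, adjusted p = 0.228; r = 0.572 without the 2 mice farthest from the median of Suz12). Ezh1 and Rnf2 had the lowest (r = −0.879, permutation p = 0.00486, adjusted p = 0.117; rho = −0.552, permutation p = 0.105, adjusted p = 0.393). That relation rested on CM mouse 1 and CM/miR-126Δ/Δ mouse 5, without which r was −0.316. Taken as deviations from the genotype means, the 3 values of r were 0.824, 0.763 and −0.877. Each genotype alone held too few mice for its own value. The permutations treated the 10 mice as independent, although same-numbered mice deviated together and mouse 1 was the highest of both genotypes for Bmi1, Suz12 and Rnf2, so these p-values are too small to the extent that the pairs share their values. For the paralogs Ezh1 and Ezh2, r was −0.266 (permutation p = 0.465, adjusted p = 0.713; rho = −0.248, permutation p = 0.492, adjusted p = 0.711) and −0.0243 without the 2 mice farthest from the median of Ezh1.

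**Figure D4:**
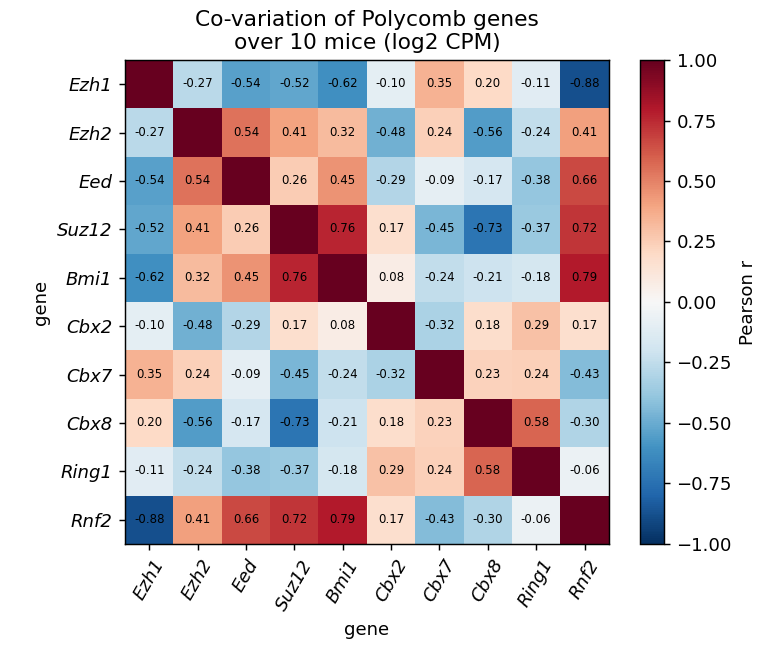
Pearson r of log2 CPM over 10 mice for each pair of the 10 Polycomb genes, from blue (−1) to red (1). Suz12, Bmi1 and Rnf2 have positive r with each other, and Ezh1 has its lowest r, −0.88, with Rnf2, none of them with an adjusted p under 0.05.

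The wider Polycomb machinery was described with 6 further lists (PRC2 partners, other canonical PRC1, variant PRC1, the PR-DUB deubiquitinase, erasers of the marks, and the opposing Trithorax/MLL methyltransferases), 61 genes in all, of which 59 were expressed. By the cutoffs of the study 0 of them were called (background 0.288%), and 0 had an edgeR adjusted p under 0.05 (background 0.0107%). With an unadjusted p under 0.05, 3 were higher, where 3.46% of expressed genes were, and 2 were lower, where 4.46% were. Once mice were blocked by number the counts were 6 (background 5.34%) and 2 (6.88%), again with 0 at an adjusted p under 0.05 (0.107%). The median log2 fold change of the 59 was 0.0201.

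By the smallest p in the fit without the block, the genes on the higher side were Mbd5, a PR-DUB partner, Lcorl, a PRC2 partner, and Sfmbt1, an MBT-domain protein. Mbd5 ranged from 42.0 to 57.8 CPM over CM libraries and from 55.6 to 67.7 CPM over CM/miR-126Δ/Δ libraries, overlapping between the genotypes, and its log2 fold change was 0.25 ± 0.0893 (standard error; edgeR adjusted p = 0.728). The log2 fold changes of Lcorl and Sfmbt1 were 0.22 and 0.15. Each of the 3 was higher in 5 of 5 same-numbered pairs. The exons of these genes are long (7055, 10734 and 8122 bases), and once a trend of the differences with exon length was removed the values were 0.20, 0.13 and 0.0877. With the block, 2 Trithorax/MLL methyltransferase genes, Kmt2d and Kmt2c, had a smaller p than Lcorl and Sfmbt1 (unadjusted p = 0.00319 and 0.0108, adjusted p = 0.234 and 0.341, edgeR). Their log2 fold changes of 0.20 and 0.18 became 0.040 and 0.041 with the length trend removed. The part of exon length in these values was not tested further. On the lower side were Cxxc1, the CpG-binding subunit of SET1 methyltransferases, E2f6, the E2F protein of variant PRC1, and Wdr5, a shared MLL subunit. Cxxc1 ranged from 61.6 to 70.6 CPM over CM libraries and from 54.9 to 59.5 CPM over CM/miR-126Δ/Δ libraries. It was the only one of the 59 whose genotypes did not overlap (background 1.38% in either direction, 0.728% on the lower side). The log2 fold change of Cxxc1 was −0.17 ± 0.0524 (standard error, edgeR adjusted p = 0.641). E2f6 and Wdr5 had log2 fold changes of −0.15 and −0.0992, and all 3 genes were lower in 5 of 5 pairs. With the length trend removed the 3 values were −0.13, −0.11 and −0.069, and without CM mouse 1 that of E2f6 was −0.088.

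**Figure D5:**
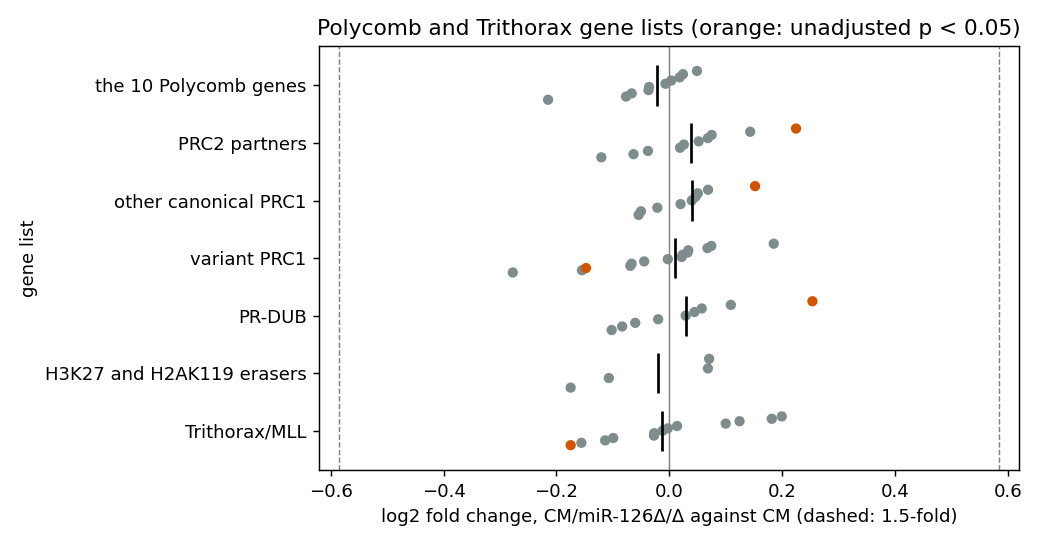
Log2 fold change in CM/miR-126Δ/Δ against CM of each expressed gene (RPKM averaging 1 or more) among the 10 Polycomb genes and 6 related lists, with a black bar at each list's median and dashed lines at 1.5-fold. Orange marks the 5 genes with an unadjusted p under 0.05 in edgeR's quasi-likelihood test, none of which is among the 10 or has an adjusted p under 0.05.

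Of the targets of Polycomb silencing, Cdkn2a and Cdkn2b were below the detection limit in both genotypes, most developmental regulators were at or below it, and 3 other cell cycle inhibitors were expressed. Cdkn2a, which encodes the cell cycle inhibitors p16 and p19 repressed by BMI1, had 0 to 2 counts in each of the 10 libraries, and its neighbor Cdkn2b had 0 or 1, so both were below the 3-count limit and no fold change is given. Cdkn1c, the imprinted inhibitor of stem cell cycling, ranged from 1.76 to 5.15 CPM over CM libraries and from 3.57 to 6.42 CPM over CM/miR-126Δ/Δ libraries (log2 fold change 0.28, standard error 0.249, edgeR adjusted p = 0.765). Its log2 fold change was 0.11 without CM mouse 3 and 0.17 without CM/miR-126Δ/Δ mouse 5. Cdkn1a, which encodes the p53-induced inhibitor p21, differed in the other direction. It ranged from 9.90 to 36.0 CPM over CM libraries and from 7.31 to 19.9 CPM over CM/miR-126Δ/Δ libraries, was lower in 4 of 5 pairs, and had a log2 fold change of −0.65 (standard error 0.329, edgeR adjusted p = 0.764, and 0.512 with the block, where its unadjusted p was 0.0382). Without CM mouse 2, the highest, it was −0.25. Cdkn2c averaged 36.7 and 38.6 CPM, with a log2 fold change of 0.075 (edgeR adjusted p = 0.872) that ran from 0.034 to 0.16 when 1 mouse was left out (without CM mice 1 and 4). Cdkn1a and Cdkn2c are named to complete the list, after their values were seen. Of 22 developmental regulators that Polycomb keeps silent in most tissues, such as Pax6, Gata4 and Neurog1, 11 had 0 counts in every library, 17 had at most 3 counts in each, 5 exceeded 3 counts in any library and 0 reached a mean RPKM of 1. The highest was Pax6, with 7 to 27 counts in CM mice and 2 to 5 in CM/miR-126Δ/Δ mice, which did not overlap (log2 fold change −1.88, edgeR adjusted p = 0.525; named after its values were seen). Together the 22 summed to 0.538 to 1.42 CPM over CM libraries and to 0.288 to 0.566 CPM over CM/miR-126Δ/Δ libraries, ranges that overlap. The means were 0.932 ± 0.387 and 0.468 ± 0.114 CPM (SD), and the sum was lower in CM/miR-126Δ/Δ in each same-numbered pair. Without Pax6 it was lower in some pairs and higher in others. The difference in this sum was not tested.

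Ezh2 and its partners are known to rise in dividing cells, so cycling genes were measured beside them. Mki67, the proliferation marker, ranged from 844 to 1066 CPM over CM libraries and from 838 to 1234 CPM over CM/miR-126Δ/Δ libraries (log2 fold change 0.11, standard error 0.109, edgeR adjusted p = 0.787). This value was 0.026 with the length trend removed, 0.048 without CM/miR-126Δ/Δ mouse 2, and 0.20 without CM/miR-126Δ/Δ mouse 4, where the unadjusted edgeR p was 0.0489. The summed level of 12 cycling genes was 2947 ± 44.1 CPM over the 5 CM libraries and 2994 ± 253 CPM over the 5 CM/miR-126Δ/Δ libraries (SD), and 0 of the 12 had an unadjusted p under 0.05 (background 7.92%). With the block 1 did, on the lower side (background 6.88%). This was Pcna, the replication clamp, named after its values were seen, which was lower in 5 of 5 pairs (log2 fold change −0.15, adjusted p = 0.371 with the block, and −0.082 with the length trend removed). Their part in the spread of the Polycomb genes was not tested.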

How the data were processed

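Each of 10 mice gave 1 stranded, rRNA-depleted RNA library of sorted LSK cells, and the labels gave its genotype and number. Trimmed reads were mapped by the authors with TopHat2 on mm10, and HTSeq (0.6.1p1 per the submitters' processing notes) assigned them to RefSeq genes, and the deposited counts are raw reads per gene. Whether counting used the strand is not given in the sources used here. No other listed gene overlapped a member. Other deposited values, each count divided by 1 constant per library, were not used.

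The 18747 genes with any count entered edgeR 4.0.16 under R 4.3.3 (TMM, quasi-likelihood F-test in the edgeR 3 form, genotype as the only term, Benjamini-Hochberg adjustment). The standard error is the size of the log2 fold change over the square root of F, and intervals use the same fit. Exon length and the TMM-scaled library size gave RPKM. DESeq2 1.42.0 was an alternative. Permutation tests (Python 3.11.15, scipy 1.17.1) were two-sided on log2 CPM with a prior count of 2, where the smallest exact p for 5 mice against 5 is 0.00794.

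The members and lists were chosen with earlier results of these data known. Named were all members, the 3 genes of the smallest p per direction in the related lists, and selected targets. Kmt2c, Kmt2d, Pcna, Cdkn1a, Cdkn2c, Pax6 and the cell type markers, Hlf, Meis1 and Mecom included, were named outside this rule after their values were seen. By symbol, 60 of 61 related genes matched. Same-numbered mice deviated together from their genotype means (r = 0.315, 0.246, 0.453, 0.465 and 0.172 for numbers 1 to 5 across expressed genes, RPKM averaging 1 or more, which are not independent). The mean of different numbers, −0.0845, is not a separate contrast, since deviations from a genotype mean sum to 0. Of 10 mice, 5 correlated best with their own number. Since every same-number r was over 0.1, the number, taken from the labels, was treated as pairing them. No 2 libraries of 1 genotype agreed within sampling noise (chi-square per degree of freedom of at least 10.4).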

Additional observations from a re-analysis of the deposited data

Results flagged for a closer look

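In 40 groups of 5 mice (the CPM of each member, its share of its paralog family where it has one, total counts and the share on the ribosomal precursor Rn45s, in each genotype), 3 held a mouse far from the other 4 by Dixon's criterion, where about 2 are expected by chance. Bmi1 was at 68.3 CPM in CM mouse 1, above the 51.0 to 55.4 CPM seen elsewhere in that genotype. Cbx7 was at 20.8 CPM in the same mouse, below the 25.8 to 27.5 CPM of the other CM mice. Rnf2 was at 68.7 CPM in CM/miR-126Δ/Δ mouse 5, below the 79.7 to 82.8 CPM of the others.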

How the results depend on the processing

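Over 190 alternative values for the 10 members, 0 had an unadjusted edgeR or DESeq2 p under 0.05. The lowest edgeR adjusted p was 0.551, for Cbx7 without CM/miR-126Δ/Δ mouse 4. In all, 4 members (Ezh1, Cbx2, Cbx7 and Ring1) kept their direction in every alternative, though leaving out 1 mouse gave 0.00786 (without CM/miR-126Δ/Δ mouse 5) to 0.0864 (without CM mouse 5) for Ezh1, −0.105 to −0.0103 (without CM/miR-126Δ/Δ mice 3 and 4) for Cbx2, −0.111 to −0.0191 (without CM mice 3 and 4) for Ring1 and −0.283 to −0.0998 (without CM/miR-126Δ/Δ mice 4 and 3) for Cbx7. The other 6 changed sign in 23 values, all near 0. The log2 fold change of Ezh2 was 0.0024 with RLE factors, 0.0027 in DESeq2, 0.011 with filterByExpr, 0.014 among expressed genes alone and 0.030 with the length trend removed, where Eed was 0.016. Cbx8 was −0.012 with library totals only and −0.0053 with the replicate block, and the block changed no call among the members. Leaving out 1 mouse at a time gave −0.0236 to 0.0262 for Ezh2, −0.0601 to 0.0133 for Eed, −0.0116 to 0.0652 for Suz12, −0.0184 to 0.116 for Bmi1, −0.0556 to 0.0803 for Cbx8 and −0.0556 to 0.0238 for Rnf2. Alternatives for 20 other genes (Mbd5, Lcorl, Sfmbt1, Cxxc1, E2f6, Wdr5, Mki67, Cdkn1c, Cdkn1a, Cdkn2c, Pcna, Pax6, Kmt2d, Kmt2c, Itgam, Csf1r, Itga2b, Hlf, Meis1 and Mecom) were chosen after the data were seen, and these genes kept their direction in all 378 values.

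Over all genes, 54 met the cutoffs, 115 with the replicate block and 111 without the RPKM requirement. The count ran from 33 to 128 when 1 mouse was left out (128 without CM mouse 3, 85, 94 and 33 without CM/miR-126Δ/Δ mice 1, 4 and 5). At an adjusted p under 0.05 there were 2 genes, 1 with library totals only, 4 with filterByExpr, 4 among expressed genes alone, 20 with the replicate block, 45 in DESeq2 and 1 to 7 when 1 mouse was left out. By CPM instead of RPKM the mean share over 10 mice was 70.4% for Ezh2 and 82.4% for Rnf2, since their paralogs differ in exon length. Shares in the larger families moved further. By CPM the means in CM and CM/miR-126Δ/Δ were 3.48% and 3.56% for Cbx8 and 8.63% and 7.54% for Cbx7. They were 2.54% and 2.41% for Pcgf2 and 52.6% and 54.5% for Pcgf5. A prior count of 0.5 in the exact permutation test passed no member, and the exact sign-change test over pairs cannot reach p under 0.05 at this size.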

Other observations

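Pax6 was the developmental target with the most counts. By mouse, its counts were 16, 11, 27, 7 and 8 over CM mice 1 to 5, then 5, 3, 2, 4 and 2 over CM/miR-126Δ/Δ mice 1 to 5, so that 3 of the 5 CM/miR-126Δ/Δ libraries were at or below 3 counts and the genotypes did not overlap. Its log2 fold change was −1.88 (standard error 0.504, edgeR adjusted p = 0.525, lower in 5 of 5 pairs). Without Pax6, the other 21 developmental targets together summed to 0.441 ± 0.359 CPM over CM libraries and 0.341 ± 0.117 CPM over CM/miR-126Δ/Δ libraries (SD over 5 each). Among the LSK markers, Hlf, Meis1 and Mecom, transcription factor genes of stem cells, had log2 fold changes of 0.31, 0.19 and 0.24 with an unadjusted p under 0.05 in edgeR's quasi-likelihood test (adjusted p = 0.661, 0.746 and 0.748). With the length trend removed these values were 0.28, 0.20 and 0.20, and Mecom no longer had an unadjusted p under 0.05. They were singled out after their values were seen.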
